A study of Mus musculus with 20 samples.

Results

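The genes described here are those whose expression in the mouse abdominal aorta moved the same way under angiotensin II (Ang II) infusion in both wild-type (WT) and Plod1-/- mice. Plod1 encodes lysyl hydroxylase 1, an enzyme that hydroxylates lysine residues of collagen before cross-linking. The mice were of the C57BL/6 strain and 6 months old by the labels, whereas the study's methods name C57Bl/6NCrl males and a younger age at pump implantation. They carried either the wild-type or the disrupted Plod1 gene and received saline or Ang II at 1000 ng/kg per minute from an osmotic pump. Each of the 4 combinations of genotype and treatment held 5 mice, whose abdominal aortas were sequenced on day 14. The knockout was not limited to a cell type by its label, so the controls of a Plod1-/- mouse are Plod1-/- mice given saline.

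All 20 mice entered the fit. Of the 43422 genes deposited, 13263 had an FPKM (fragments scaled to transcript length and library size) of at least 1 in at least 5 mice and were tested. Differences are on the log2(FPKM + 1) scale, on which changes of weakly expressed genes come out too small. A gene was called when its Benjamini-Hochberg adjusted p-value from limma was below 0.05 and its log2 fold change was above 1 in size. A gene was counted as shared when it was called in the additive fit of genotype and treatment and was also called, in the same direction, within WT mice and within Plod1-/- mice. By this rule 238 genes were shared, 150 of them higher and 88 lower in the Ang II-treated mice. The additive log2 fold change is the mean of the responses in both genotypes.

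Ang II is the effector peptide of the renin-angiotensin system. It acts through the type 1 receptor on vascular smooth muscle, where it raises contraction and arterial pressure, and on adventitial, immune and fat cells. Prolonged infusion in mice is widely used to provoke remodelling, inflammation and dissection of the aortic wall. The wall consists of an endothelial lining, a media of contractile smooth muscle between elastic lamellae, and an adventitia that is surrounded by perivascular fat.

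The FPKM sum of a library ran from 344207 to 437790, and read depth is unknown because counts were not used here. Plod1 was between 22.8 and 29.7 FPKM in the 10 WT mice and between 0 and 0.0415 FPKM in the 10 Plod1-/- mice, as the genotype labels state. The median share of mitochondrial genes in the FPKM sum was 9.92% under saline and 24.5% under Ang II among WT mice, and 13.9% and 11.9% among Plod1-/- mice. Although the study describes male mice, Xist reached 15.1 FPKM in Plod1-/- replicate 5 under saline and 7.93 FPKM in Plod1-/- replicate 1 under Ang II, against at most 0.0328 FPKM elsewhere. Without these libraries, 184 genes were shared in the higher and 94 in the lower direction. The smooth muscle markers (5 genes) summed to 16709 FPKM in Ang II-treated WT replicate 4 and 16553 FPKM in Ang II-treated Plod1-/- replicate 1, within the range of the saline-treated mice (13811 to 20335 FPKM). In the other 8 Ang II-treated mice the sum was lower than in every saline-treated mouse. Acta2 made up most of the sum, with 14301.5 FPKM in WT replicate 4 and 14455.6 FPKM in Plod1-/- replicate 1. In WT replicate 4 Tagln lay below every saline-treated mouse and the other markers lay within their range. In Plod1-/- replicate 1 Myh11 (801 FPKM) and Lmod1 (149 FPKM) lay below every saline-treated mouse, and Tagln and Cnn1 above every one. Without these 2 libraries, 280 genes were shared in the higher and 204 in the lower direction, and 235 of the 238 shared genes were among them. Both libraries were picked after the data were seen, for a marker sum that had not fallen, and the marker Tagln is itself a shared gene. Leaving out such mice favours larger counts, so this fit is no check of the shared genes.

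The additive fit called 841 genes higher (6.34% of the genes tested) and 356 lower (2.68%) under Ang II. Within WT mice 834 genes were called higher (6.29%) and 300 lower (2.26%), and within Plod1-/- mice 1179 were called higher (8.89%) and 691 lower (5.21%). With edgeR and the same nominal thresholds the study reported far fewer genes in each genotype, above all in WT mice. The reason for this gap was not tested. The shared genes were 1.13% of the genes tested in the higher and 0.663% in the lower direction. Of the genes called higher in WT mice, 17.99% were shared, and of those called higher in Plod1-/- mice, 12.7%. The corresponding shares of genes with lower expression were 29.3% in WT and 12.7% in Plod1-/- mice. Most genes called in the additive fit were therefore not shared: 443 of those with higher expression were called within Plod1-/- mice alone and 244 within WT mice alone, and 230 and 37 of those with lower expression. Another 27 genes were called in both genotypes in opposite directions, 20 of them higher in Plod1-/- and lower in WT mice. The median log2 fold change of all genes tested was -0.01 in the additive fit, -0.12 in WT and 0.06 in Plod1-/- mice.

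**Figure D1:**
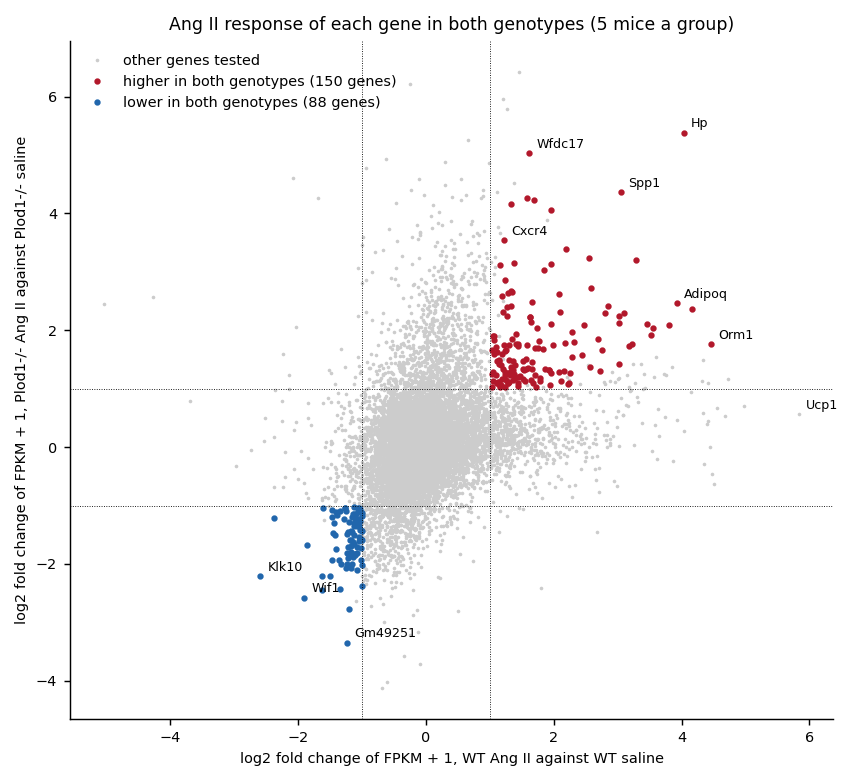
Ang II response of each of the 13263 genes tested, as the log2 fold change of FPKM + 1 in WT mice (horizontal axis) and in Plod1-/- mice (vertical axis), with dotted lines at a log2 fold change of 1 in size. Red points are the 150 genes higher and blue points the 88 genes lower in both genotypes, and grey points, such as Ucp1, are the other genes. Most grey points far from the origin lie along one axis, and Hp (haptoglobin) has the largest shared response.

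Among the genes higher in both genotypes, the median log2 fold change was 1.52 in WT and 1.60 in Plod1-/- mice. Among the genes lower in both, it was -1.16 in WT and -1.50 in Plod1-/- mice, and 71 of these 88 genes had the larger response in Plod1-/- mice, against 67 of the 150 genes with higher expression. The interaction of genotype and treatment was called for 2129 genes, 16.1% of those tested. It was called for 18 of the shared genes, 17 of which had the larger response in Plod1-/- mice. For the other 220 shared genes the difference between genotypes was not called, which does not show that the responses were equal. The responses of both genotypes lay within 0.5 of each other on the log2 scale for 77 of the 150 and 53 of the 88 genes. At the edge of the rule, Timm23 was inside with log2 fold changes of 1.15 in WT and 1.02 in Plod1-/- mice, and Ces1f was outside with 1.63 and 0.991. Tagln was inside with -1.0005 and -1.12, and Gm10080 was outside with -0.997 and -1.31. In all, 63 genes with higher and 131 with lower expression were outside only because of the size of a response: they had adjusted p-values below 0.05 in both genotypes.

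Expression in all 10 Ang II-treated mice lay above all 10 saline-treated mice for 34 genes (0.256% of those tested) and below them for 44 genes (0.332%). Of these, 8 with higher and 3 with lower expression were shared genes. Within each genotype taken alone, 148 genes lay higher without overlap (1.12%) and 115 lower (0.867%), of which 27 and 19 were shared.

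The 8 shared genes that lay higher in every Ang II-treated mouse encode 3 receptors, a phospholipase, an adipocyte protease, a cytoskeletal substrate of protein kinase C, a pericyte-enriched mitochondrial protein and a pseudogene. Cfd (adipsin, or complement factor D; ENSMUSG00000061780; chr10:79890853-79892655 of GRCm38) is a serine protease of the alternative complement pathway that fat cells secrete. Its FPKM was 156, 110, 254, 43.9 and 173 under saline and 1958, 1105, 696, 512 and 875 under Ang II in WT mice. The Plod1-/- values were 122, 314, 178, 91.2 and 220 under saline and 459, 3904, 420, 693 and 1152 under Ang II. Every Ang II-treated mouse exceeded the highest saline-treated mouse, with a log2 fold change of 2.63 ± 0.39 (SE, adjusted p = 9.78e-05).

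Hcar2, a G protein-coupled receptor for 3-hydroxybutyrate and niacin that restrains lipolysis in fat cells and is also made by neutrophils and macrophages, lies at chr5:123863570-123865499. In the saline-treated mice it was between 0.0964 and 0.663 FPKM. Under Ang II its FPKM was 4.14, 1.12, 1.75, 1.43 and 6.50 in WT and 1.32, 5.65, 4.31, 3.85 and 4.24 in Plod1-/- mice, so both genotypes covered a like range. The log2 fold change was 1.44 in WT and 1.77 in Plod1-/- mice (1.60 ± 0.21 over both, adjusted p = 5.75e-05). Higd1b, a small inner mitochondrial membrane protein known as a pericyte marker, lies at chr11:102835849-102838040. It ranged from 0.0878 to 1.07 FPKM under saline and from 1.11 to 7.41 FPKM under Ang II. The lowest Ang II value, 1.11 FPKM in WT replicate 4, stood close to the highest saline value. Higd1b had a log2 fold change of 1.92 in WT and 1.32 in Plod1-/- mice (1.62 ± 0.23 over both, adjusted p = 7.52e-05).

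Cxcr4, the receptor of the chemokine CXCL12, lies at chr1:128588199-128592293. It was between 0.802 and 2.35 FPKM in the saline-treated mice, and at 6.6, 3.73, 3.53, 2.99 and 4.70 FPKM in Ang II-treated WT mice. In Ang II-treated Plod1-/- mice it was at 4.81, 39.6, 58.3, 58.9 and 20.9 FPKM, so 4 of these 5 mice lay above every WT mouse and replicate 1 lay among them. The log2 fold change of Cxcr4 was 1.23 ± 0.45 (SE) in WT and 3.55 ± 0.45 in Plod1-/- mice, and the difference between the genotypes was called (2.32, adjusted p = 0.00864). The shared call of Cxcr4 was lost when any of 7 mice was left out (WT replicates 1, 4 and 5 under saline and 1, 2, 3 and 5 under Ang II). Marcks, an actin-binding substrate of protein kinase C, lies at chr10:37133375-37138920 and showed the same order. It was between 2.61 and 6.16 FPKM under saline, at 13.8, 8.98, 7.22, 6.78 and 13.6 FPKM in Ang II-treated WT mice, and at 10.6, 30, 56.8, 47.2 and 67.9 FPKM in Ang II-treated Plod1-/- mice. Tmem8, a glycosylphosphatidylinositol-specific phospholipase, lies at chr17:26113299-26123254 and was between 0.768 and 2.24 FPKM under saline. It was at 7.64, 4.47, 3.51, 2.32 and 2.71 FPKM in Ang II-treated WT and at 3.06, 25.2, 25.4, 21.2 and 20.7 FPKM in Ang II-treated Plod1-/- mice. The log2 fold changes of Marcks and Tmem8 were 1.29 and 1.18 in WT and 2.63 and 2.58 in Plod1-/- mice, and the difference between genotypes was called for both genes (adjusted p = 0.0349 and 0.0482).

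Ghr, the growth hormone receptor, lies at chr15:3317760-3583492. It was between 4.39 and 7.55 FPKM under saline, at 26.2, 10.3, 10.2, 8.77 and 12.5 FPKM in Ang II-treated WT mice and at 8.39, 51.6, 9.44, 19.8 and 30.1 FPKM in Ang II-treated Plod1-/- mice. The groups did not overlap, but the lowest Ang II-treated mouse stood just above the highest saline-treated mouse, and the log2 fold change was 1.33 ± 0.26 (SE, adjusted p = 0.000686). Bambi-ps1, a processed pseudogene of the transforming growth factor-beta pseudoreceptor gene Bambi (chr2:122466935-122467526), ranged from 0.565 to 1.54 FPKM under saline and from 1.69 to 5.16 FPKM under Ang II. Its reads may be shared with Bambi, so its value is uncertain. For Bambi-ps1, log2 fold changes were 1.16 in WT and 1.04 in Plod1-/- mice.

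The 3 shared genes that lay lower in every Ang II-treated mouse were Fam84a, Myom1 and Vwce. Fam84a (ENSMUSG00000020607; chr12:14146830-14152054), a gene of the LRAT domain family whose role in the artery is not settled, had the smallest adjusted p-value of all shared genes (1.09e-05). Its FPKM was 11.6, 9.21, 5.57, 9.67 and 8.24 under saline and 2.68, 2.03, 2.90, 3.29 and 1.78 under Ang II in WT mice. Saline-treated Plod1-/- mice had 6.82, 5.16, 5.57, 6.30 and 7.16, and those given Ang II had 2.03, 0.499, 1.58, 0.450 and 0.395. Fam84a had log2 fold changes of -1.47 ± 0.21 (SE) in WT and -1.93 ± 0.21 in Plod1-/- mice. Myom1, which encodes the sarcomeric M-band protein myomesin 1, lies at chr17:71002633-71126856. It was between 112 and 179 FPKM under saline and at 37.0, 43.3, 66.7, 109 and 49.8 FPKM in Ang II-treated WT mice. In Ang II-treated Plod1-/- mice it was at 80.0, 44.8, 22.5, 24.7 and 20.3 FPKM. In each genotype the highest of these values came from the library whose smooth muscle marker sum, mostly Acta2, lay in the saline range. Vwce, a secreted protein with von Willebrand factor C and EGF domains, lies at chr19:10634213-10666213. It ranged from 1.87 to 5.31 FPKM under saline and from 0.0958 to 1.86 FPKM under Ang II, with log2 fold changes of -1.34 in WT and -1.09 in Plod1-/- mice. Myom1 overlaps Myl12a and Vwce overlaps 4930524O05Rik on the opposite strand. The libraries did not keep strand, so reads of such pairs cannot be told apart, and 36 of the 150 and 47 of the 88 shared genes overlap a gene in this way.

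**Figure D2:**
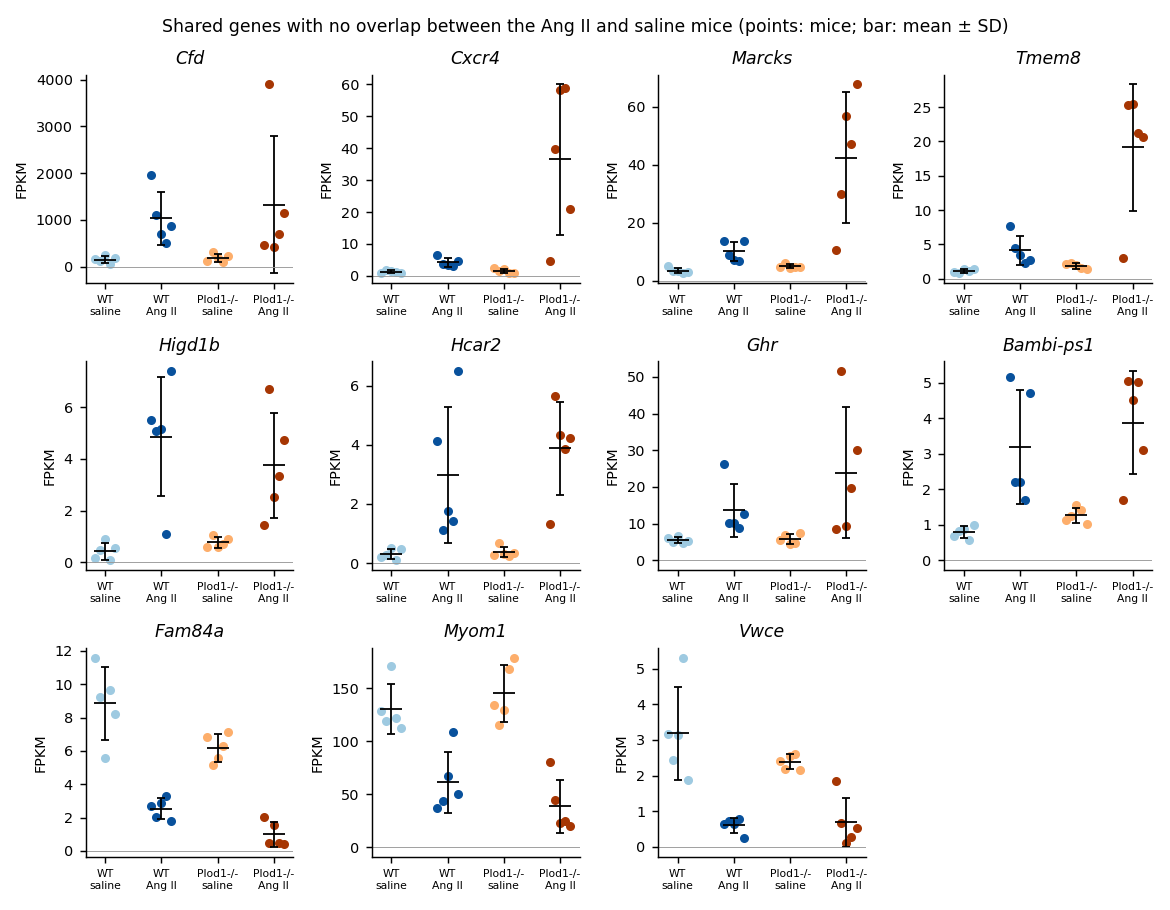
FPKM (vertical axis, linear) of the 11 shared genes whose Ang II-treated and saline-treated mice do not overlap, for each mouse (points) of the 4 groups, with the mean and SD of the group (black). In Cxcr4, Marcks and Tmem8 the Ang II-treated Plod1-/- mice lie highest except for 1 mouse, whereas in Hcar2 and Bambi-ps1 the genotypes cover a like range.

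Among shared genes with higher expression, the smallest adjusted p-values belonged to Asns, Rps4l, Ppa1, Hcar2 and Adam12. Asns encodes asparagine synthetase, a target of the transcription factor ATF4 in the amino acid response. It lies at chr6:7675169-7693254 on the minus strand. Its FPKM was 1.34, 2.19, 3.02, 2.72 and 2.64 under saline and 13.6, 11.3, 8.89, 3.81 and 12.8 under Ang II in WT mice, and the Plod1-/- mice stood at 2.62, 5.49, 2.99, 1.79 and 2.13 under saline and 11.1, 24.1, 14.2, 16.5 and 16.3 under Ang II. The groups did not overlap within either genotype, and the log2 fold change was 1.89 ± 0.20 (SE, adjusted p = 3.16e-05). In the additive fit Asns was the 1 gene called among the 18 tested in the list of serine, one-carbon and amino acid metabolism. Psat1 and Phgdh of serine synthesis and Chac1, a further target of ATF4, were called within Plod1-/- mice alone. The log2 fold changes were -0.46 in WT and 2.17 in Plod1-/- mice for Psat1, -0.12 and 1.22 for Phgdh, and 0.42 and 1.29 for Chac1.

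The Asns promoter is shown because it holds the core of the C/EBP-ATF response element through which ATF4 is known to act. The 250 bases before the RefSeq start site, chr6:7693210-7693459 on the minus strand of GRCm38.p6, are printed 5′ to 3′ with the match to TGATGNAA in capitals.
Asns: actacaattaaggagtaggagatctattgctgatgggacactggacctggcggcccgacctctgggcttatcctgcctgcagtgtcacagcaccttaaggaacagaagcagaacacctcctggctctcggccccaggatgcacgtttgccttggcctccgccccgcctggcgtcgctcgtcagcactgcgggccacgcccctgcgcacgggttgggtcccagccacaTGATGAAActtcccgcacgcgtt
Searched on both strands of windows from 250 bases before to 50 after the start, TGATGNAA was found in 206 of 9389 tested genes with a window (2.19%). It was found in 3 of 107 such shared genes with higher expression (Asns, Lgals3bp and Tmem268) and in 1 of 60 with lower expression. These matches are a description of the letters and do not show binding.

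Ppa1, a cytosolic inorganic pyrophosphatase, rose from between 9.91 and 29.4 FPKM under saline to between 23.2 and 80.0 FPKM under Ang II, without overlap within either genotype. The log2 responses were 1.58 in WT and 1.74 in Plod1-/- mice. Rps4l, a transcribed copy of the ribosomal protein gene Rps4x that overlaps Tmtc1 on the opposite strand, ranged from 9.29 to 19.4 FPKM under saline and from 19.2 to 54.4 FPKM under Ang II. Because it resembles Rps4x its value is uncertain. Adam12, a metalloprotease-disintegrin of mesenchymal cells, was between 0.0823 and 1.44 FPKM under saline. With Ang II it was at 3.42, 3.39, 2.85, 0.465 and 2.27 FPKM in WT and at 4.01, 6.51, 7.49, 10.04 and 15.6 FPKM in Plod1-/- mice. Its log2 fold changes were 1.35 and 2.66, which differed between the genotypes (adjusted p = 0.0258).

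Among shared genes with lower expression, the smallest adjusted p-values after Fam84a belonged to Gm13212, Csdc2, Col4a6 and Fam129a. Csdc2, which encodes an RNA-binding cold shock domain protein, was between 16.4 and 28.9 FPKM under saline. Under Ang II it was at 5.58, 10.4, 12.4, 16.8 and 7.06 FPKM in WT and at 7.49, 4.99, 6.49, 4.68 and 4.46 FPKM in Plod1-/- mice, so that only WT replicate 4 lay within the saline range. Fam129a, also called Niban, a stress-response protein, was between 58.3 and 80.8 FPKM under saline. With Ang II it was at 23.2, 24.0, 35.6, 61.9 and 24.2 FPKM in WT and between 18.8 and 27.4 FPKM in Plod1-/- mice. Again WT replicate 4 alone lay within the saline range. Csdc2 had a log2 fold change of -1.51 ± 0.17 and Fam129a one of -1.33 ± 0.15 (SE, adjusted p = 3.19e-05 for both).

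The genes of 44 lists with defined roles were then counted. Of 964 listed genes, 787 were tested and 48 were shared, and these 48 are described by role. Over all genes tested, 6.34% were called higher and 2.68% lower in the additive fit, and 1.13% and 0.663% were shared. A list whose counts are near these shares does not stand out from the genes tested. In bulk tissue, fewer cells of a type and less RNA per cell cannot be told apart, so marker sums are given beside the lists of the cell types concerned.

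**Figure D3:**
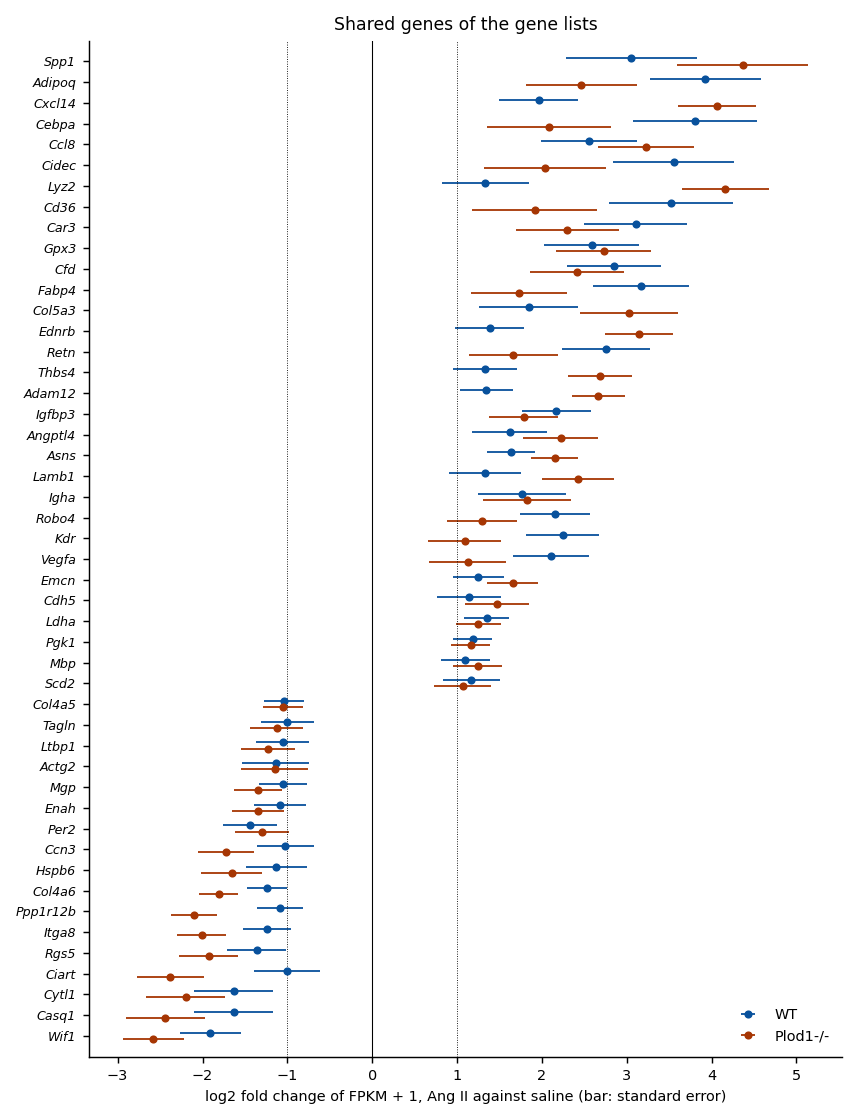
Log2 fold change of FPKM + 1 under Ang II (horizontal axis) of the 48 shared genes of the lists, in WT (blue) and Plod1-/- mice (brown), with bars for the standard error and dotted lines at 1 in size. Spp1 and Adipoq have the largest and Wif1 and Casq1 the most negative mean responses, and the adipocyte genes lie further right in WT whereas Cxcl14, Lyz2 and Ednrb lie further right in Plod1-/- mice.

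Genes of white adipocytes formed the largest shared group. Of 20 tested, 16 were called higher in the additive fit and 8 were shared (Adipoq, Cebpa, Cidec, Cd36, Car3, Cfd, Fabp4 and Retn), and none was lower. The median log2 fold change of the list was 2.27 (3.14 in WT and 1.21 in Plod1-/- mice), against -0.01 for all genes tested. Adipoq encodes adiponectin, the most abundant hormone of fat cells. Its FPKM was 15.7, 9.10, 42.3, 3.55 and 33.9 under saline and 366, 332, 251, 90.7 and 331 under Ang II in WT mice. The Plod1-/- values were 42.7, 119, 34.6, 15.4 and 22.8 under saline and 84.9, 611, 103, 186 and 367 under Ang II. The WT groups did not overlap, whereas among Plod1-/- mice replicate 2 under saline lay above 2 of the Ang II-treated mice. The log2 fold change of Adipoq was 3.92 ± 0.66 (SE) in WT and 2.47 ± 0.66 in Plod1-/- mice, and this difference was not called (adjusted p = 0.222).

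Fabp4, the fatty acid carrier of adipocytes and macrophages, ranged from 42.4 to 468 FPKM under saline (median 115) and from 234 to 1236 FPKM under Ang II (median 816). Cebpa, a transcription factor of adipocyte differentiation, ranged from 0.729 to 20.6 FPKM (median 4.23) under saline and from 3.36 to 110 FPKM (median 49.9) under Ang II. Both genes were without overlap in WT mice and overlapped in Plod1-/- mice. Retn, which encodes resistin, had log2 fold changes of 2.76 in WT and 1.66 in Plod1-/- mice. Cidec, which fuses lipid droplets, had 3.55 and 2.04, and Cd36, a fatty acid transporter, 3.52 and 1.91. Car3, the carbonic anhydrase of fat and slow muscle, had 3.10 and 2.30. Plin1, which coats lipid droplets, and Pparg, the leading regulator of adipocyte genes, were called in the additive fit and within WT mice but were not shared. Their log2 fold changes were 4.32 and 3.02 in WT and 1.12 and 1.18 in Plod1-/- mice.

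Related shared genes outside that list were named after their values were seen. Plin2, which coats lipid droplets in many cell types, had a median of 26.5 FPKM under saline and 185 FPKM under Ang II, and Fabp5 had medians of 2.77 and 19.8 FPKM. Apoc1, an apolipoprotein, had medians of 5.73 and 100.3 FPKM, with log2 fold changes of 4.16 in WT and 2.37 in Plod1-/- mice. Angptl4, a secreted inhibitor of lipoprotein lipase that stood on the list of glucocorticoid-induced genes, had medians of 21.1 and 91.7 FPKM and log2 fold changes of 1.62 and 2.22. Scd2, a fatty acid desaturase, was the only shared gene of 23 tested for fatty acid synthesis, of which 12 were called higher in the additive fit and 14 within WT mice. For Scd2, log2 fold changes were 1.17 in WT and 1.07 in Plod1-/- mice.

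Brown adipocyte genes were not shared. Of 17 tested, 11 were called higher in the additive fit and 14 within WT mice, but the 2 called within Plod1-/- mice were lower. Ucp1, the uncoupling protein that defines brown fat, had log2 fold changes of 5.83 in WT and 0.57 in Plod1-/- mice. The summed FPKM of the 5 white adipocyte markers ran from 13.7 to 121 in saline-treated and from 271 to 1034 in Ang II-treated WT mice, and from 40.8 to 402 and from 174 to 1726 in Plod1-/- mice. The 5 brown adipocyte markers summed to between 14.0 and 378 FPKM in saline-treated and between 544 and 4332 FPKM in Ang II-treated WT mice, without overlap. In Plod1-/- mice they summed to between 19.5 and 1255 FPKM under saline and between 131 and 584 FPKM under Ang II. The white adipocyte sums were higher under Ang II in WT mice without overlap and in Plod1-/- mice with overlap. Their markers include the shared genes Adipoq, Cidec and Retn, so these sums are no separate measure of fat. The part of perivascular fat in the dissected tissue was not tested. A fit with a covariate cannot tell it from treatment in WT mice, because the covariate did not overlap between their groups. With the mean of the brown adipocyte list as a covariate, no gene was shared by limma, and no gene was called within WT mice, in which that mean separated the groups (1.74 to 3.34 under saline and 3.64 to 5.59 under Ang II on the log2 scale). Under this covariate 26 of the 238 genes, and 267 of all genes tested, had an unadjusted p below 0.05 and 1 direction in both genotypes, and 173 of the 238 were still called in the additive fit.

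**Figure D4:**
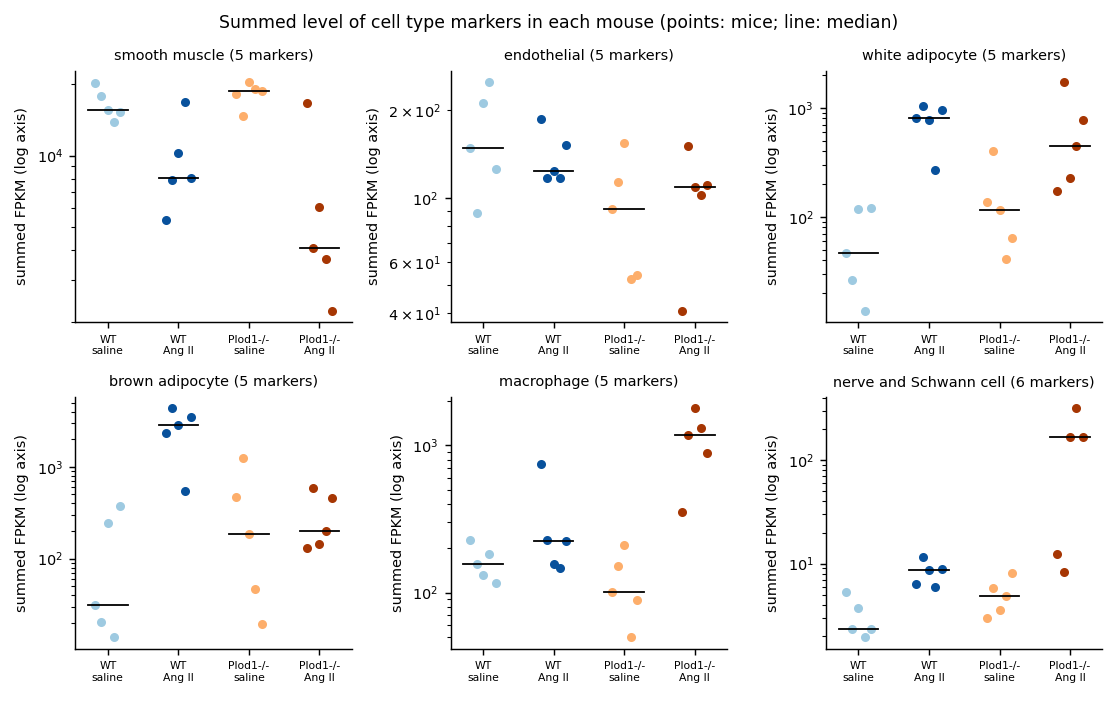
Summed FPKM (vertical axis, logarithmic) of cell type markers in each mouse (points) of the 4 groups, with the median as a line. Smooth muscle markers lie lower in 8 of the 10 Ang II-treated mice. White adipocyte markers lie higher under Ang II in both genotypes, with overlap in Plod1-/- mice. Brown adipocyte markers lie higher in WT and macrophage markers in Plod1-/- mice.

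Genes of contractile smooth muscle were the largest group with lower expression. Of 23 tested, 18 were called lower in the additive fit, 6 within WT and 19 within Plod1-/- mice, and 4 were shared (Itga8, Ppp1r12b, Actg2 and Tagln). The direction was downward in both genotypes for 22 of the 23 genes, and the median log2 fold change was -1.27 (-0.86 in WT and -1.68 in Plod1-/- mice). Itga8, the integrin alpha 8 chain of smooth muscle, was between 169 and 239 FPKM in all saline-treated mice. Under Ang II it was at 71.1, 68.2, 114, 233 and 67.3 FPKM in WT and at 85.7, 63.7, 54.4, 38.7 and 32.5 FPKM in Plod1-/- mice. WT replicate 4 alone lay within the saline range, and the log2 fold change was -1.62 ± 0.22 (SE, adjusted p = 6.38e-05). Npnt (nephronectin), the matrix ligand of that integrin, was singled out after its values were seen. It had medians of 241 FPKM under saline and 71.5 FPKM under Ang II and log2 fold changes of -1.32 in WT and -2.01 in Plod1-/- mice.

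Ppp1r12b, a myosin phosphatase targeting subunit, was between 51.8 and 71.6 FPKM under saline. With Ang II it was at 18.4, 19.7, 33.6, 56.3 and 22.3 FPKM in WT and at 29.0, 15.5, 10.7, 10.9 and 10.4 FPKM in Plod1-/- mice. Its log2 fold changes of -1.08 and -2.10 differed between the genotypes (adjusted p = 0.0442), and it overlaps Syt2 on the opposite strand. Its paralogue Ppp1r12a (-1.15 in WT and -1.63 in Plod1-/- mice) and Rock1, a kinase that inhibits that phosphatase (-1.05 and -1.53), were also shared and were singled out after their values were seen. Actg2, the smooth muscle gamma actin, was at 363, 361, 311, 332 and 348 FPKM in saline-treated and 104, 149, 184, 291 and 108 FPKM in Ang II-treated WT mice. Saline-treated Plod1-/- mice lay between 213 and 361 FPKM, and those given Ang II were at 455, 82.6, 124, 71.5 and 66.8 FPKM. Ang II-treated Plod1-/- replicate 1 was the highest of all 20 mice for Actg2, and the other 4 were below every saline-treated mouse. The shared calls of Actg2 and Tagln were lost in 8 and 7 of the 20 fits that left out 1 mouse.

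Acta2, Myh11 and Cnn1, which define contractile smooth muscle, were called lower within Plod1-/- mice and did not pass the rule in WT mice. Acta2, the smooth muscle alpha actin, had a mean of 14043 ± 2251 FPKM (SD, n = 5) in saline-treated and 8237 ± 3679 FPKM in Ang II-treated WT mice. Plod1-/- means were 15552 ± 1940 FPKM and 5712 ± 5050 FPKM. The log2 fold changes of Acta2 were -0.86 in WT and -1.80 in Plod1-/- mice, those of Myh11 (smooth muscle myosin heavy chain) -0.92 and -2.27, and those of Cnn1 (calponin 1) -1.004 and -1.65. Tagln (transgelin) met the rule narrowly, but its value is uncertain. It was listed at no more than 12.2 FPKM in any mouse, far below Acta2, and overlaps Pcsk7 on the opposite strand.

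Other shared genes of muscle and actin function had lower expression as well. Casq1, the calcium-binding protein calsequestrin 1, was between 11.4 and 47.5 FPKM under saline. Under Ang II it was at 2.72, 11.9, 16.3, 29.7 and 14.6 FPKM in WT and at 7.17, 3.94, 10.8, 2.36 and 2.16 FPKM in Plod1-/- mice. It stood on the list of skeletal muscle genes, of which 3 of 14 tested were called higher and 2 lower in the additive fit. The skeletal muscle markers summed to medians of 2.44 FPKM under saline and 119 FPKM under Ang II in WT mice and of 4.35 and 2.25 FPKM in Plod1-/- mice, and their part in the values of Casq1 was not tested. Enah, an actin elongation factor, had log2 fold changes of -1.09 and -1.35 and was, with Mgp, shared among 34 tested genes of synthetic smooth muscle and actin remodelling. Hspb6, the small heat shock protein of relaxing smooth muscle, had -1.13 and -1.66, and it was shared among 17 heat shock genes tested, of which 5 were called lower. Rgs5, which shortens the signalling of G protein-coupled receptors such as the type 1 Ang II receptor, was between 271 and 767 FPKM under saline. With Ang II it was at 97.9, 121, 132, 362 and 150 FPKM in WT and at 252, 127, 95.1, 82.2 and 140 FPKM in Plod1-/- mice, with only WT replicate 4 inside the saline range. The log2 fold changes of Rgs5 were -1.36 and -1.93.

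Within the list of renin-angiotensin and vasoactive genes, 34 were tested, 2 were called higher and 7 lower in the additive fit, and Ednrb and Rgs5 were shared. The count called higher was near the share over all genes tested (6.34%), and the count called lower was above it (2.68%). Ednrb, the endothelin B receptor, was between 0.707 and 2.05 FPKM under saline. Under Ang II it was at 12.1, 4.89, 4.58, 1.84 and 8.40 FPKM in WT and at 4.50, 27.6, 19.3, 26.7 and 24.5 FPKM in Plod1-/- mice. Its log2 fold changes of 1.38 and 3.15 differed between the genotypes (adjusted p = 0.0209). Agtr1a, the type 1a Ang II receptor, was called higher in the additive fit but was not shared, with log2 fold changes of 0.74 in WT and 1.47 in Plod1-/- mice.

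**Figure D5:**
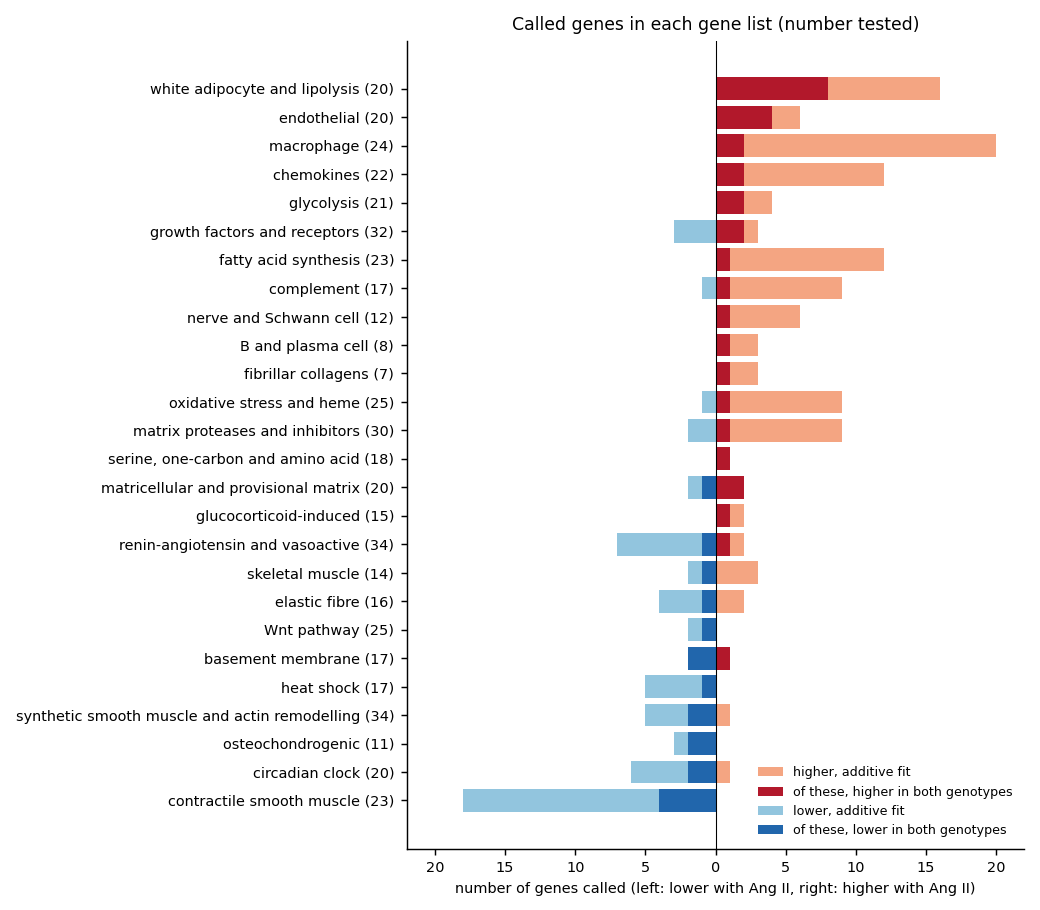
Number of genes called in each gene list with at least 1 shared gene (number tested in brackets), to the right where expression was higher and to the left where it was lower under Ang II. Pale bars count the genes called in the additive fit and dark bars those shared by both genotypes, which are most numerous for white adipocyte genes (8 of 16 called) and few for macrophage genes (2 of 20 called).

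Of 20 endothelial genes tested, 6 were called higher and none lower in the additive fit, and 4 were shared (Robo4, Kdr, Emcn and Cdh5). The median log2 fold change of the list was 0.50. Cdh5, which encodes VE-cadherin of endothelial junctions, was at 13.3, 7.82, 19.4, 17.8 and 12.3 FPKM in saline-treated and 41.3, 29.7, 33.4, 16.3 and 42.6 FPKM in Ang II-treated WT mice. Among Plod1-/- mice it was at 10.5, 15.8, 11.1, 5.09 and 4.46 FPKM under saline and 9.25, 27.5, 28.3, 39.4 and 35.9 FPKM under Ang II. In both genotypes 4 of 5 Ang II-treated mice lay above every saline-treated mouse, and the log2 fold change was 1.31 ± 0.26 (SE, adjusted p = 0.000795). Emcn, the capillary and venous sialomucin endomucin, had log2 fold changes of 1.25 in WT and 1.65 in Plod1-/- mice. Robo4, a guidance receptor of vessels, had 2.16 and 1.30, and Kdr, the main receptor of vascular endothelial growth factor A, had 2.24 and 1.09.

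The ligand gene Vegfa was shared too, with medians of 9.11 FPKM under saline and 38.4 FPKM under Ang II and log2 fold changes of 2.11 in WT and 1.12 in Plod1-/- mice. The calls of Kdr and Vegfa were close to the threshold within Plod1-/- mice (adjusted p = 0.0455 and 0.0487), and they were lost in 10 and 17 of the 20 fits that left out 1 mouse. Notch4, an endothelial Notch receptor named after its values were seen, had log2 fold changes of 1.29 and 1.09. With the brown adipocyte covariate the additive log2 fold changes of Cdh5 (0.9996), Kdr (0.816), Vegfa (0.785) and Notch4 (0.883) fell short of the threshold. Pecam1, a further defining endothelial gene, was not called, with log2 fold changes of -0.85 in WT and -0.47 in Plod1-/- mice. The 5 endothelial markers summed to medians of 148 FPKM in saline-treated and 124 FPKM in Ang II-treated WT mice, and of 91.7 and 109 FPKM in Plod1-/- mice, with overlap in both genotypes. Pecam1 made up most of this sum in every saline-treated mouse, so the sum hides markers that went different ways. Cdh5 and Egfl7 were called higher in the additive fit (log2 fold changes of 1.31 and 1.004). Tek (0.07), Vwf (-0.06) and Pecam1 (-0.66) were not called.

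The 3 largest additive log2 fold changes of the shared genes were those of Hp, Spp1 and Wfdc17. Hp, the plasma haemoglobin scavenger haptoglobin that liver and fat cells make, was named after its values were seen and led the shared genes (log2 fold change 4.71 ± 0.63, adjusted p = 6.38e-05). Its FPKM was 22.3, 23.8, 68.1, 14.9 and 90.4 under saline and 4690, 598, 391, 102 and 606 under Ang II in WT mice. Saline-treated Plod1-/- mice had 113, 266, 57.7, 19.7 and 16.3, and those given Ang II had 869, 6198, 1419, 2586 and 4043. Within each genotype the groups of Hp did not overlap. Lrg1 and Orm1, further acute-phase proteins named after their values were seen, had log2 fold changes of 2.19 and 4.46 in WT and 3.40 and 1.76 in Plod1-/- mice. Orm1 was the shared gene whose larger response was in WT mice by the interaction test (adjusted p = 0.0305). Saa3, an inducible serum amyloid A, met the rule with values that were very unequal among WT mice. With Ang II it was at 973, 0.123, 0.0737, 3.53 and 35.3 FPKM in WT and between 7.03 and 18 FPKM in Plod1-/- mice, and it was at most 0.643 FPKM under saline. Its shared call was lost in 16 of the 20 fits that left out 1 mouse.

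Of 24 macrophage genes tested, 20 were called higher and none lower in the additive fit, with 22 called within Plod1-/- and 2 within WT mice, and those 2 were the shared genes Spp1 and Lyz2. Spp1 encodes osteopontin, a secreted phosphoprotein of macrophages and injured smooth muscle. Its FPKM was 1.14, 2.62, 2.28, 4.18 and 2.74 under saline and 282, 18, 10.2, 9.37 and 30.2 under Ang II in WT mice, and the Plod1-/- mice stood at 4.11, 13.7, 7.26, 18.5 and 20.5 under saline and 79.6, 91.2, 570, 828 and 275 under Ang II. The groups did not overlap within either genotype, with log2 fold changes of 3.05 in WT and 4.37 in Plod1-/- mice. Lyz2, the lysozyme of macrophages and neutrophils, had log2 fold changes of 1.34 in WT and 4.16 in Plod1-/- mice, which differed (adjusted p = 0.00588). Among Ang II-treated WT mice replicate 1 stood at 1009 FPKM of Lyz2 and the other 4 at 150 to 224 FPKM, and its shared call was lost in 11 of the 20 fits that left out 1 mouse. Cd68, a lysosomal marker of macrophages, was not shared (0.86 in WT and 4.26 in Plod1-/- mice).

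The 5 macrophage markers summed to between 116 and 227 FPKM in saline-treated and between 147 and 746 FPKM in Ang II-treated WT mice. Among Plod1-/- mice their sums lay between 49.8 and 210 FPKM under saline and between 350 and 1781 FPKM under Ang II. C1qa made up most of the sum in every mouse. The 746 FPKM came from WT replicate 1, and the other Ang II-treated WT mice lay between 147 and 228 FPKM. In WT mice Cd14 went down (log2 fold change -1.0004), whereas Cd68, Adgre1, Csf1r and C1qa went up (0.86 to 1.07). These markers are macrophage genes themselves, so their sums are no separate measure of the cells, and their part in the other increases was not tested. Mpeg1 and Wfdc17, shared genes of myeloid cells that were named after their values were seen, had log2 fold changes of 1.68 and 1.62 in WT and 4.23 and 5.03 in Plod1-/- mice. Of 11 neutrophil genes tested, 10 were called higher in the additive fit and none was shared. The neutrophil markers summed to medians of 3.89 FPKM under saline and 10.1 FPKM under Ang II in WT mice and of 2.18 and 277 FPKM in Plod1-/- mice. Red blood cell markers had medians of 257 and 485 FPKM in WT and of 123 and 2257 FPKM in Plod1-/- mice, and 6 of 8 genes of their list were called higher with none shared. The part of either in the shared genes was not tested.

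Among 22 chemokine genes tested, 12 were called higher in the additive fit and 2 were shared. Ccl8, a ligand of several CC receptors that tissue macrophages make, was between 1.75 and 2.77 FPKM in saline-treated WT mice and at 78.0, 22.3, 10.2, 4.50 and 23.4 FPKM under Ang II. In Plod1-/- mice it was at 3.30, 6.33, 26.9, 3.57 and 3.77 FPKM under saline and between 43.7 and 140 FPKM under Ang II, again without overlap within the genotype. Cxcl14, a chemokine of epithelia, fat and fibroblasts, had medians of 0.850 FPKM under saline and 21.4 FPKM under Ang II. Its log2 fold changes of 1.96 in WT and 4.06 in Plod1-/- mice differed (adjusted p = 0.0177). Igha, the constant region of immunoglobulin A, was the shared gene among 8 tested B and plasma cell genes, with log2 fold changes of 1.77 and 1.82 and FPKM of at most 4.20 under saline and 26.3 under Ang II. Of that list 3 genes were called higher in the additive fit, and the B cell markers summed to between 0.576 and 3.05 FPKM under saline and between 1.005 and 12.4 FPKM under Ang II.

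Shared genes of the extracellular matrix went in both directions. Within the basement membrane list, of 17 tested, 1 was called higher and 2 were called lower in the additive fit, and all 3 were shared. The count called higher was near the share over all genes tested (6.34%). Col4a5 and Col4a6, neighbouring genes on the X chromosome that encode the alpha 5 and alpha 6 chains of type IV collagen, were lower. Col4a6 was between 18.4 and 30.5 FPKM under saline. Under Ang II it was at 8.6, 6.89, 12, 23.3 and 7.13 FPKM in WT and at 4.36, 5.99, 7.80, 4.54 and 4.41 FPKM in Plod1-/- mice, with only WT replicate 4 inside the saline range. The log2 fold changes were -1.24 and -1.81 for Col4a6 and -1.04 and -1.05 for Col4a5. The additive call of Col4a5 was lost without WT replicate 2 or 5 under Ang II (log2 fold changes of -0.977 and -0.987), and its shared call in 5 of the 20 fits that left out 1 mouse. Its additive call was also lost with the brown adipocyte covariate (-0.830). Col4a1 and Col4a2, which encode the ubiquitous chains, had log2 fold changes between -0.18 and 0.23 in the genotypes and were not called. Lamb1, the laminin beta 1 chain, was higher, with medians of 1.67 FPKM under saline and 8.84 FPKM under Ang II and log2 fold changes of 1.33 and 2.42.

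Of 7 fibrillar collagen genes tested, Col5a3 was the shared member, with log2 fold changes of 1.84 in WT and 3.03 in Plod1-/- mice. Its FPKM under Ang II was 11.4, 4.31, 3.22, 0.839 and 5.96 in WT and 1.84, 21.4, 19.4, 30.6 and 58.1 in Plod1-/- mice, against at most 2.53 under saline. Col1a1 and Col3a1, the main interstitial collagens, were called higher in the additive fit, a call that Col3a1 lost in 16 and Col1a1 in 4 of 33 alternatives. They had log2 fold changes of -0.38 and -0.47 in WT and 3.27 and 3.07 in Plod1-/- mice. Such genes were not counted as shared.

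Among 20 matricellular genes tested, 2 were called higher and 2 lower, and 3 of these were shared. Thbs4 (thrombospondin 4) was between 0.123 and 1.40 FPKM under saline and between 0.593 and 20.4 FPKM under Ang II, without overlap within either genotype, with log2 fold changes of 1.33 and 2.68. Spp1, described above, was the other gene with higher expression. Ccn3, a growth-restraining CCN protein of the arterial media, was between 383 and 783 FPKM under saline and between 108 and 516 FPKM under Ang II, with log2 fold changes of -1.02 and -1.73. Ltbp1, which stores latent transforming growth factor-beta in the matrix, was the shared gene of 16 elastic fibre genes tested (-1.05 and -1.23). Its FPKM in WT replicate 4 (73.4) and Plod1-/- replicate 1 (72.9) under Ang II lay in the saline range of 55.9 to 87.9, and the other 8 Ang II-treated mice lay between 17.9 and 35.7. Mgp (matrix Gla protein), an inhibitor of arterial calcification, had medians of 4216 FPKM under saline and 1824 FPKM under Ang II and log2 fold changes of -1.05 and -1.35. Cytl1, a secreted protein of cartilage, had -1.63 and -2.20, and both stood on the list of osteochondrogenic genes, of which 3 of 11 tested were called lower.

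Wif1, a secreted inhibitor of Wnt ligands, had among the largest shared decreases. Its FPKM was 21, 20.3, 16.2, 23.7 and 18.2 under saline and 1.40, 2.95, 5.76, 16.2 and 3.65 under Ang II in WT mice. The Plod1-/- values were 30.5, 17.3, 31.1, 19.7 and 13.2 under saline and 1.95, 3.25, 3.37, 2.72 and 2.50 under Ang II. The log2 fold change was -2.24 ± 0.26 (SE, adjusted p = 3.19e-05), and WT replicate 4 alone lay within the saline range. Of 25 Wnt pathway genes tested, 2 were called lower and Wif1 was the shared gene. Klk10, a kallikrein-related peptidase named after its values were seen, had the most negative additive log2 fold change of the shared genes (-2.40). It was between 25.4 and 91.2 FPKM in saline-treated and between 4.30 and 19.4 FPKM in Ang II-treated WT mice, and between 6.16 and 29.0 FPKM and between 0.680 and 5.05 FPKM in Plod1-/- mice. Its log2 fold changes were -2.60 and -2.21.

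Of 20 circadian clock genes tested, 6 were called lower and 1 higher in the additive fit, and Per2 and Ciart were shared. The median log2 fold change of the list was -0.55. Per2, a repressor of the core clock loop, was at 18, 18, 33.1, 26.9 and 33.4 FPKM in saline-treated and 7.89, 6.65, 8.82, 18.5 and 5.23 FPKM in Ang II-treated WT mice. Among Plod1-/- mice it was at 28.4, 19.2, 19, 12.8 and 20.0 FPKM under saline and 10.2, 14.4, 3.85, 5.18 and 6.49 FPKM under Ang II. In each genotype 4 of 5 Ang II-treated mice lay below every saline-treated mouse, and the log2 fold changes were -1.44 ± 0.32 (SE) and -1.29 ± 0.32. Ciart, a further repressor of the loop, had log2 fold changes of -1.004 in WT (adjusted p = 0.0494) and -2.38 in Plod1-/- mice, and its shared call was lost in 13 of the 20 fits that left out 1 mouse. Dbp, an output gene of the clock, had -0.12 and -3.16 and was not shared. The time of day at which each aorta was taken is not given in the sources used here, and its part in these values was not tested.

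The Ciart promoter is shown because clock repressors are known to be driven through E-boxes. The 250 bases before the RefSeq start site, chr3:95882229-95882478 on the minus strand of GRCm38.p6, hold 3 copies of CACGTG, in capitals.
Ciart: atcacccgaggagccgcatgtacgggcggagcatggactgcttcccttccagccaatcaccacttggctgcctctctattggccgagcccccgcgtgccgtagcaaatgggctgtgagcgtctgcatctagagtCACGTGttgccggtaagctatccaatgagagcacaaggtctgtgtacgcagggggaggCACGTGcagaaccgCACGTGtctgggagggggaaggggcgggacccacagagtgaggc
CACGTG, which reads the same on both strands, was present in the windows of 961 of the 9389 tested genes (10.2%). It was present in 8 of 107 shared genes with higher and 4 of 60 with lower expression (Bex4, Ciart, Wif1 and Wwp2). The CArG box, the site of serum response factor, was found in 131 windows of tested genes (1.40%), in 2 of the 107 with higher expression (Ldha and Mpeg1) and in 2 of the 60 with lower expression (Myom1 and Stbd1).

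Shared genes of energy metabolism and growth signalling completed the lists. Ldha (lactate dehydrogenase A) and Pgk1 (phosphoglycerate kinase 1) were the shared members of 21 glycolytic genes tested, of which 4 were called higher. Pgk1 was between 51.8 and 110 FPKM under saline and between 75.0 and 202 FPKM under Ang II, without overlap within either genotype, and its log2 fold changes were 1.18 and 1.16. Ldha had 1.35 and 1.25. With the brown adipocyte covariate the additive log2 fold changes of Ldha (0.956) and Pgk1 (0.926) fell short of the threshold. Slc16a1, a lactate and ketone transporter, and Pgd, of the pentose phosphate pathway, were named after their values were seen and had log2 fold changes of 1.98 and 1.92 in WT and 1.75 and 1.31 in Plod1-/- mice. Igfbp3, which binds insulin-like growth factors, had medians of 2.01 FPKM under saline and 15.5 FPKM under Ang II and log2 fold changes of 2.17 and 1.79. With Vegfa it was shared among 32 growth factor and receptor genes tested, of which 3 were called higher and 3 lower. Gpx3, the secreted glutathione peroxidase, ranged from 38.2 to 181 FPKM under saline and from 179 to 2044 FPKM under Ang II, without overlap within either genotype, and was shared among 25 oxidative stress genes tested. Log2 fold changes were 2.59 and 2.73. Mbp, the myelin basic protein gene, was the shared gene of 12 nerve genes tested, at no more than 11.3 FPKM (1.10 and 1.24). Of that list 6 genes were called higher in the additive fit and 8 within Plod1-/- mice. The nerve and Schwann markers summed to medians of 2.35 FPKM under saline and 8.74 FPKM under Ang II in WT mice and of 4.89 and 168 FPKM in Plod1-/- mice, and their part in the value of Mbp was not tested.

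Several lists called in the additive fit held no shared gene. Of 32 oxidative phosphorylation genes, 9 were called higher in the additive fit and 28 within WT mice. Of 20 cell cycle genes, 11 were called higher in the additive fit and 18 within Plod1-/- mice. Of 29 immediate early genes, 17 were called lower within WT and 13 higher within Plod1-/- mice. Of 15 proteoglycan genes, 5 were called lower and 1 higher in the additive fit and none was shared.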

How the data were processed

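RNA from the abdominal aortas of 20 mice (5 per group) was sequenced on day 14. By the study's methods, reads that matched ribosomal RNA were discarded before alignment with HISAT2. Transcripts were then merged with stringtie, and cuffquant and cuffnorm gave the expression values. The authors deposited FPKM for each Ensembl gene, not log-transformed. The submitters' processing notes name the mm10 build, Bowtie2 2.2.3, HISAT2 2.1.0 and HTSeq 0.6.0. Which of these tools gave the deposited values is not settled. Because FPKM is scaled to library size, a change in a few abundant genes can shift the values of the others. The files hold FPKM and no counts, so depth is unknown and the count model edgeR, which the authors name, was not run. Precision rests on the spread between the 5 mice of a group.

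Groups and replicate numbers were taken from the labels. Values were transformed to log2(FPKM + 1), restricted to genes that reached an FPKM of 1 in 5 or more mice, and fitted with limma 3.58.1 in R 4.3.3 (eBayes with a variance trend), with the packages data.table, version 1.17.8, and jsonlite, version 2.0.0. The additive fit held genotype and treatment, and responses within a genotype and their interaction came from a fit of the 4 group means. Tests were two-sided with Benjamini-Hochberg adjustment over the 13263 genes, and the method was tested on simulated data. The p-values measure the spread between these mice only. Symbols and coordinates came from GENCODE mouse release 21 (GRCm38), which held 43226 of the 43422 genes, and promoters from RefSeq. Of the tested genes, 9389 had a promoter window. Python 3.11.15, pandas 2.3.3, numpy 2.4.6 and matplotlib 3.10.9 were used for counts and plots.

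The members, the 44 gene lists and the tests were chosen with earlier results of these data known. The named genes were, among shared genes, up to 10 per direction with the largest change and no overlap over the 20 mice, the 5 per direction with the smallest adjusted p-value, the 3 per direction with the least different responses among those without overlap, and those of the lists, with up to 4 members per list given with values. Any further gene is marked as chosen after its values were seen, which also holds for unshared list members named beside shared ones. Alternatives to these settings comprised a pseudocount of 0.1, no filter, a filter of 10 mice, a replicate block, no variance trend, gene-wise variances, weights per mouse, quantile normalization, mitochondrial genes left out, both Xist libraries left out, a brown adipocyte covariate, the adjusted p-value alone, separate fits per genotype and each mouse left out. A fit without both Ang II libraries whose smooth muscle marker sum lay in the saline range was added after the data were seen.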

Additional observations from a re-analysis of the deposited data

Results flagged for a closer look

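The values of 1 mouse stood apart from the other 4 of its group, by Dixon's test at the 95% level, in 8 of 96 groups tested (24 genes in 4 groups each), and chance flags about 1 group in 20. Marcks was at 6.16 FPKM in saline-treated Plod1-/- replicate 2, against 4.45 to 4.86 in the other mice of the group. For Tmem8, Plod1-/- replicate 1 under Ang II had 3.06 FPKM, against 20.7 to 25.4. In Ang II-treated WT replicate 4, Higd1b was at 1.11 FPKM against 5.07 to 7.41, Adam12 at 0.465 against 2.27 to 3.42, Gm13212 at 6.27 against 2.004 to 2.56, and Adipoq at 90.7 against 251 to 366. Vwce was at 0.251 FPKM in Ang II-treated WT replicate 5, against 0.635 to 0.778, and Gm13212 had 1.65 FPKM in Plod1-/- replicate 5 under Ang II, against 2.51 to 2.87.

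For 12 named shared genes the response to Ang II differed between the genotypes by the interaction test of limma, with the direction the same in both. The differences on the log2 scale, Plod1-/- minus WT, were 2.32 for Cxcr4 (adjusted p = 0.00864), 1.34 for Marcks (0.0349), 1.40 for Tmem8 (0.0482), 1.32 for Adam12 (0.0258), 2.099 for Cxcl14 (0.0177), 1.76 for Ednrb (0.0209), 2.82 for Lyz2 (0.00588), 3.41 for Wfdc17 (0.00551) and 2.55 for Mpeg1 (0.0231). Orm1 went the other way, with the larger response in WT mice (-2.70, adjusted p = 0.0305). For 2 genes lower under Ang II, Ppp1r12b and the kinase gene Mylk4, the differences were -1.01 (0.0442) and -1.56 (0.0211). Wfdc17, Mpeg1, Orm1 and Mylk4 were named after their values were seen.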

How the results depend on the processing

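The additive fit called 841 genes higher and 356 lower, and 150 and 88 were shared. With a pseudocount of 0.1 these counts were 1266, 647, 301 and 167, and with the adjusted p-value alone 2844, 3047, 567 and 903. Weights per mouse gave 234 and 186 shared genes, and the brown adipocyte covariate 0 and 0. The fit without both Ang II libraries whose smooth muscle marker sum lay in the saline range gave 280 and 204, a rise that this choice of mice favours. Leaving out 1 mouse at a time gave 733 to 961 and 318 to 466 genes in the additive fit, and 113 to 217 and 59 to 186 shared genes. The 186 came without Ang II-treated WT replicate 4, where 237 of the 238 shared genes were kept, and no other mouse moved a count by over 1.5 times. In all 20 of these fits 117 shared genes were kept (82 higher, 35 lower). Of the 63 genes named by rule, none reversed, and the additive call was kept in 2063 values. In 16 it fell short of the threshold, 11 of them under the covariate. These 11 were Actg2, Bambi-ps1, Cdh5, Col4a5, Kdr, Ldha, Ltbp1, Pgk1, Scd2, Tagln and Vegfa. With the replicate block 151 and 85 genes were shared, 231 of the 238 among them. Same-numbered mice did not deviate together more than differently numbered mice of different groups. Their correlations ran from -0.33 to 0.45 (median -0.07, 8 of 30 over 0.1), and those of the latter from -0.60 to 0.44 (median 0.001, 41 of 120 over 0.1). The numbers were therefore not taken as pairs, and the block moved no count by over 1.5 times. Unknown read depth limits the genes of low FPKM most.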

Other observations

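Small responses were also found without overlap between all Ang II-treated and all saline-treated mice. Of the 78 genes of this kind, 67 were not shared, and 47 had a log2 fold change of at most 1 in the additive fit. These genes were named after their values were seen. Sptan1, which encodes the alpha chain of non-erythroid spectrin, was between 29.4 and 40.5 FPKM under saline and between 19.4 and 28.6 FPKM under Ang II, with log2 fold changes of -0.54 in WT and -0.53 in Plod1-/- mice. Mical1, an actin-oxidizing enzyme, had -0.79 and -0.82. Id3, an inhibitor of helix-loop-helix transcription factors, was between 202 and 314 FPKM under saline and between 117 and 194 FPKM under Ang II, with log2 fold changes of -0.90 and -0.69. Erbb2, a receptor tyrosine kinase, had -0.63 and -0.41. Upward, Rasgrp3, an activator of Ras-family proteins, had 0.92 and 0.98, and Psph, the last enzyme of serine synthesis, had 0.80 and 0.55.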
